A study of Mus musculus with 28 samples.

Results

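The genes described here were 10 genes of the extraembryonic endoderm: the transcription factors Gata6, Gata4, Sox17, Sox7, Foxa2 and Hnf4a, and the endocytic genes Dab2, Lrp2, Cubn and Amn. They were the genes of a named list with a probe set on the array, out of 19938 gene symbols measured. Dab2 had 2 probe sets and was represented by the one with the higher mean, and each of the other 9 had 1. Of the 10, 8 reached the expression level required for testing (a mean log2 value of 6.42 over all arrays), while Sox17 with a mean of 6.32 and Cubn with a mean of 6.18 did not.

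The study profiled mouse embryonic stem (ES) cells, grown in ES cell medium and collected in log phase, on 28 Affymetrix arrays. DICER1 is the ribonuclease that cuts microRNA precursors, and the mutants carried single substitutions in its RNase IIIb domain. All transgenes were introduced into Dicer-/- ES cells with pLD-puro-ENvA or pLD-puro-PGKnvA, vector names that the labels do not spell out. The mutants were D1709A (4 arrays), E1705K (3 arrays) and D1810Y (3 arrays) in ENvA, and D1709N (2 arrays) and E1813Q (2 arrays) in PGKnvA. Wild-type DICER1 (WT-DICER1) was measured on 6 arrays, numbers 1 to 4 with ENvA and 5 and 6 with PGKnvA. The controls were Dicer-/- cells with an eGFP vector in ENvA (3 arrays), Dicer-/- cells without a transgene (Dicer-null, 3 arrays) and Dicer+/+ cells without a transgene (Dicer-WT, 2 arrays). The labels name 1 line per genotype and do not say that arrays of a group came from separate cultures, so p-values measure only the spread between these arrays.

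The primitive endoderm separates from the pluripotent cells of the blastocyst and gives rise to the visceral endoderm, which takes up maternal protein, and the parietal endoderm, which lays down a basement membrane. GATA6 starts this program, with GATA4, SOX17 and SOX7 acting after it, and FOXA2 and HNF4A mark the visceral branch. At the apical surface, megalin (Lrp2) and the complex of cubilin (Cubn) and amnionless (Amn) bind ligands, and the adaptor DAB2 links them to clathrin-coated pits. ES cells in culture express many of these genes weakly or in a minority of cells. Lrp2 had a mean log2 value of 9.47 over all arrays here, a level that cannot be ranked against those of other genes. In bulk RNA, fewer cells of a type and less RNA per cell cannot be told apart.

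The cells carried ES cell markers in every group. The mean of 8 such markers (Pou5f1, Sox2, Nanog, Zfp42, Esrrb, Klf4, Tfcp2l1 and Utf1) lay between 11.52 and 12.10 on the log2 scale on every array. It was lowest in D1810Y, between 11.52 and 11.54, without overlap with any other group, and ran between 11.71 and 11.78 with WT-DICER1. All 8 markers were called between mutants and WT-DICER1, where 2 rose and 6 fell, against 60.1% of all tested genes called. The part of this in the changes of the 10 genes was not tested. Of 14 visceral endoderm genes with a probe set, 9 reached the level required for testing, among them Apoa2 with a mean over all arrays of 9.28 and Trf with 8.37, and 5 did not, among them Afp with 6.18 and Ttr with 5.04. Levels of different genes cannot be compared with one another on this array.

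The deposited values obeyed exact relations between arrays, which affect single levels. Over all probe sets, array 4 of D1709A and array 4 of WT-DICER1 departed from the mean of their own arrays 1 to 3 by equal and opposite amounts, to within 0.000133. Such departures also cancelled, to within 0.000183, over the first arrays of D1709A, E1705K, WT-DICER1, Dicer-null and Dicer-WT. The PGKnvA and ENvA means of WT-DICER1 were equal within 7.5e-05. The 3 smallest singular values of the table were at most 0.00233, and the next was 24.1. An additive adjustment of array sets would not alter a difference taken within a set. Mutants were therefore also compared with WT-DICER1 within 3 sets, which were the ENvA arrays other than array 4, the pair of arrays numbered 4, and the PGKnvA arrays. The first of these sets includes the first arrays of D1709A, E1705K and WT-DICER1, which obey a relation of their own. An adjustment of those first arrays could therefore still alter its differences. Values of PGKnvA mutants against eGFP rest on the link through WT-DICER1. Refits on ENvA and untransduced arrays other than array 4 were chosen after seeing the data.

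The start-site sequences of Lrp2, Cubn and Dab2 are shown because these genes had the widest ranges of group means among the 10. The windows run from 250 bases before to 50 bases after an annotated start in RefSeq, build GRCm38.p6. Capitals mark matches to the GATA motif, searched on both strands as AGATAA or AGATAG or TGATAA or TGATAG.
Lrp2, chr2:69585980-69586279, minus strand: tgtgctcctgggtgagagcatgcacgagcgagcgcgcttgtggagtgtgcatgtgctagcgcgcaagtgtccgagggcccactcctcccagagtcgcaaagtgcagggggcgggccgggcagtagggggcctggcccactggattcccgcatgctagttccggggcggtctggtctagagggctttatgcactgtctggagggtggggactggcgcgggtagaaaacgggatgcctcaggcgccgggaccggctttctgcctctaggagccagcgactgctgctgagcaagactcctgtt
Cubn, chr2:13491827-13492126, minus strand: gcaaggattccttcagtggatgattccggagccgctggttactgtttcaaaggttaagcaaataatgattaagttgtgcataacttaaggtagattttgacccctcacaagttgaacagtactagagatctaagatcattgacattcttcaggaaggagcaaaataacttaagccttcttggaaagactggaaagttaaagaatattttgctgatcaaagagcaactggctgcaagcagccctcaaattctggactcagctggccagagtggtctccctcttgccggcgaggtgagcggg
Dab2, first start, chr15:6299539-6299838, plus strand: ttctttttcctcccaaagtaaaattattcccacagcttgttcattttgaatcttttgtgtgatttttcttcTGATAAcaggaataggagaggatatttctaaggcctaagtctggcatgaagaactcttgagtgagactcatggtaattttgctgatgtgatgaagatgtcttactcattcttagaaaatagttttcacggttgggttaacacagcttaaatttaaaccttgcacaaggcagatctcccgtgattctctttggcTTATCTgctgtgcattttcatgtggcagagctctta
Dab2, second start, chr15:6386498-6386797, plus strand: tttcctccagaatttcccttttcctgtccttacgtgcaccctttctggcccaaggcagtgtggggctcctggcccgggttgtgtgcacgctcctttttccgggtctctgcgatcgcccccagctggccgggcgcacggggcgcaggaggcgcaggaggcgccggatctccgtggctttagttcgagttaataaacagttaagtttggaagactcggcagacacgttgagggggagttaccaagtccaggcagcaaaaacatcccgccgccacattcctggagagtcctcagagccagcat
The window at the first Dab2 start held 2 GATA matches, and the other windows held 0. Of 32851 promoter windows of 300 bases in the same table, 29.8% held at least 1 match. A SOX motif (ACAATG or ACAATA or ACAAAG, on either strand) was found in 0 of the 4 windows and in 34.1% of all. A match describes letters and is not a bound site, and the absence of a match concerns this window only.

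Gata6, the zinc-finger factor at the head of the program, was higher with WT-DICER1 than in any other group. On the mutant arrays its log2 level was 7.64, 7.64, 7.71 and 7.45 in D1709A, 7.53, 7.54 and 7.59 in E1705K, 7.38, 7.50 and 7.46 in D1810Y, 7.08 and 7.06 in D1709N, and 7.23 and 7.27 in E1813Q. On the 6 WT-DICER1 arrays it had a minimum of 8.06, a median of 8.20 and a maximum of 8.37. It was 7.03, 7.10 and 7.04 with eGFP, 7.29, 7.12 and 7.27 in Dicer-null cells, and 7.18 and 7.33 in Dicer-WT cells. None of the 14 mutant arrays reached the lowest WT-DICER1 array, so those groups did not overlap.

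Against eGFP, Gata6 rose 2.22-fold with WT-DICER1 (log2 change 1.15, SE 0.0687, limma adjusted p = 2.85e-13). In the mean of the 5 mutants it rose 1.25-fold against eGFP (0.33, SE 0.0654, limma adjusted p = 0.00015). It was lower in the mutants than with WT-DICER1 by a log2 difference of -0.82 (SE 0.0446, limma adjusted p = 5.53e-14). Between the parental lines the Dicer-null minus Dicer-WT difference was -0.03 (limma adjusted p = 0.796). The eGFP minus Dicer-null difference was -0.17 (limma adjusted p = 0.0625) and was called without Dicer-null array 2 (-0.22, limma adjusted p = 0.0274). The comparisons of WT-DICER1 and of the mutants with eGFP share the eGFP arrays.

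Each mutant was below WT-DICER1 for Gata6. The log2 difference from WT-DICER1 was -0.60 for D1709A, -0.65 for E1705K, -0.76 for D1810Y, -1.14 for D1709N and -0.96 for E1813Q, each with a limma adjusted p of 3.62e-08 or less. These 5 comparisons share the WT-DICER1 arrays. Within sets the difference was -0.60 on ENvA arrays other than array 4, -0.92 between the arrays numbered 4, and -1.05 on PGKnvA arrays. In the order of group means, WT-DICER1 (8.21 ± 0.10, SD, n = 6) came first, then D1709A (7.61 ± 0.11, n = 4) and E1705K (7.55 ± 0.03, n = 3), whose arrays overlapped. D1810Y (7.44 ± 0.06, n = 3) followed, then Dicer-WT, E1813Q and Dicer-null between 7.23 and 7.25 with overlapping arrays, and last D1709N at 7.07 and eGFP at 7.06, which also overlapped.

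**Figure D1:**
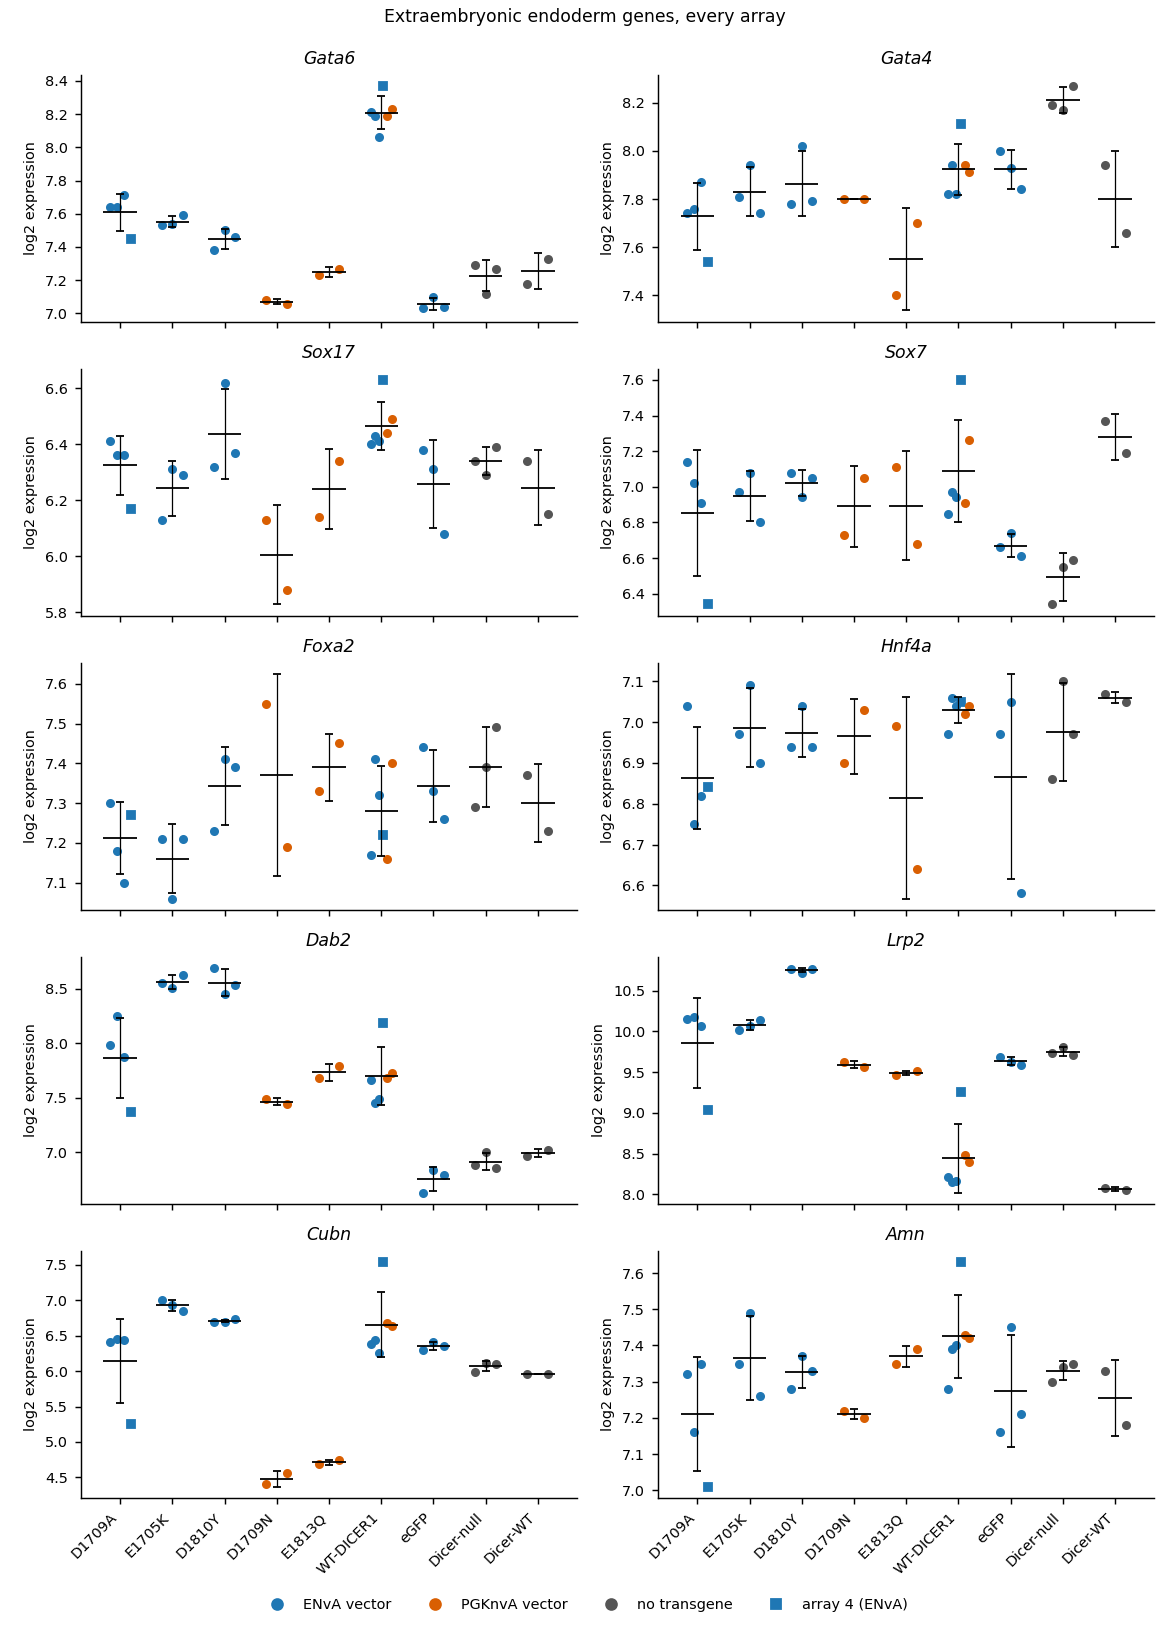
Log2 expression of the 10 genes on every array, with groups on the horizontal axis, points coloured by vector, squares for the arrays numbered 4, a bar at the group mean and error bars of 1 SD. Gata6 arrays of WT-DICER1 lie between 8.06 and 8.37, above all other arrays, while Lrp2 arrays of Dicer-WT lie at 8.05 and 8.08.

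Lrp2 encodes megalin, a large receptor of the LDL receptor family that endocytoses lipoproteins and vitamin carriers. It was higher in the mutants, with eGFP and in Dicer-null cells than with WT-DICER1 or in Dicer-WT cells. Its log2 levels were 10.15, 10.18, 10.06 and 9.04 in D1709A, 10.02, 10.07 and 10.14 in E1705K, and 10.77, 10.72 and 10.76 in D1810Y. In the PGKnvA mutants they were 9.62 and 9.56 in D1709N and 9.47 and 9.51 in E1813Q. On the 6 WT-DICER1 arrays Lrp2 had a minimum of 8.15, a median of 8.31 and a maximum of 9.26. The maximum was array 4, and the other 5 arrays ended at 8.49. Of the mutant arrays, only array 4 of D1709A lay within the range of WT-DICER1.

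Among the controls, Lrp2 was 9.69, 9.62 and 9.59 with eGFP, 9.73, 9.81 and 9.71 in Dicer-null cells, and 8.08 and 8.05 in Dicer-WT cells. Dicer-null and Dicer-WT cells did not overlap, and the difference was 3.22-fold (log2 change 1.69, SE 0.252, limma adjusted p = 2.52e-06). The eGFP minus Dicer-null difference was -0.12 (limma adjusted p = 0.705), and it was called on ENvA and untransduced arrays other than array 4 (limma adjusted p = 0.0167). Against eGFP, Lrp2 fell with WT-DICER1, by a log2 change of -1.19 (SE 0.211, limma adjusted p = 2.71e-05). Without the PGKnvA arrays and the arrays numbered 4, that change was -1.46.

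Lrp2 was 2.85-fold higher in the mean of the mutants than with WT-DICER1 (log2 change 1.51, SE 0.137, limma adjusted p = 7.22e-10). The log2 change was 1.41 in D1709A, 1.63 in E1705K, 2.30 in D1810Y, 1.15 in D1709N and 1.05 in E1813Q, with limma adjusted p-values of 0.00362 or less. Within sets the difference was 2.15 on ENvA arrays other than array 4, with no overlap, and 1.10 on PGKnvA arrays, also with no overlap. Between the arrays numbered 4 it was -0.22, so this pair of arrays went the other way.

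Against eGFP the Lrp2 change in the mean of the mutants was 0.32 and was not called (limma adjusted p = 0.187). It was called without D1709A array 4 (0.38, limma adjusted p = 0.0255). On ENvA arrays other than array 4 the mutants were above eGFP by 0.69 (limma adjusted p = 9.71e-16), and all 9 of these mutant arrays were above the highest eGFP array. That subset was chosen after seeing the data and leaves out D1709N and E1813Q. In the order of group means D1810Y (10.75 ± 0.03, n = 3) stood first, and E1705K (10.08 ± 0.06), D1709A (9.86 ± 0.55, n = 4) and Dicer-null (9.75 ± 0.05) followed, the last pair of neighbours and the pair of E1705K and D1709A overlapping. eGFP (9.63 ± 0.05) and D1709N (9.59 ± 0.04) overlapped, and E1813Q (9.49 ± 0.03), WT-DICER1 (8.44 ± 0.42) and Dicer-WT (8.06 ± 0.02) came last without overlap between neighbours.

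Dab2, the adaptor that binds the cytoplasmic tails of megalin and its relatives, was higher on every array with a DICER1 transgene than on any array without one. It was 8.55, 8.51 and 8.63 in E1705K and 8.69, 8.45 and 8.53 in D1810Y. It was 7.98, 8.25, 7.87 and 7.37 in D1709A, 7.49 and 7.44 in D1709N, and 7.68 and 7.79 in E1813Q. With WT-DICER1 the 6 arrays had a minimum of 7.45, a median of 7.67 and a maximum of 8.19, the maximum again on array 4. E1705K and D1810Y lay above all WT-DICER1 arrays, and the other mutants overlapped or fell below their range. Dab2 was 6.63, 6.84 and 6.79 with eGFP, 6.88, 7.0 and 6.86 in Dicer-null cells, and 6.97 and 7.02 in Dicer-WT cells.

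Against eGFP, Dab2 rose 1.93-fold with WT-DICER1 (log2 change 0.95, SE 0.147, limma adjusted p = 4.38e-06) and 2.43-fold in the mean of the mutants (1.28, SE 0.14, limma adjusted p = 2.48e-08). The mutants exceeded WT-DICER1 by 0.34 (SE 0.0956, limma adjusted p = 0.00367). By mutant, the change from WT-DICER1 was 0.86 in E1705K (limma adjusted p = 2.8e-05) and 0.85 in D1810Y (limma adjusted p = 2.5e-05). It was 0.17 in D1709A, -0.24 in D1709N and 0.03 in E1813Q, none of them called. D1709A was called without array 4 of either group (0.50, limma adjusted p = 7.27e-06), and without either array 4 alone (0.33, limma adjusted p = 0.0189 in each case).

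The Dab2 difference between mutants and WT-DICER1 was not the same in all sets. It was 0.85 on ENvA arrays other than array 4, with no overlap, -0.82 between the arrays numbered 4, and -0.10 on PGKnvA arrays, which overlapped. The second Dab2 probe set had group means between 3.60 and 3.94. With the mean of both probe sets the mutant minus WT-DICER1 difference was 0.08 (limma adjusted p = 0.322), while the changes against eGFP kept their calls at 0.64 for the mutants and 0.56 for WT-DICER1. In the order of group means E1705K (8.56 ± 0.06) and D1810Y (8.56 ± 0.12) overlapped at the top, D1709A (7.87 ± 0.37), E1813Q (7.74 ± 0.08), WT-DICER1 (7.70 ± 0.26) and D1709N (7.46 ± 0.04) overlapped their neighbours, and Dicer-WT, Dicer-null and eGFP stood below them between 6.75 and 6.99.

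**Figure D2:**
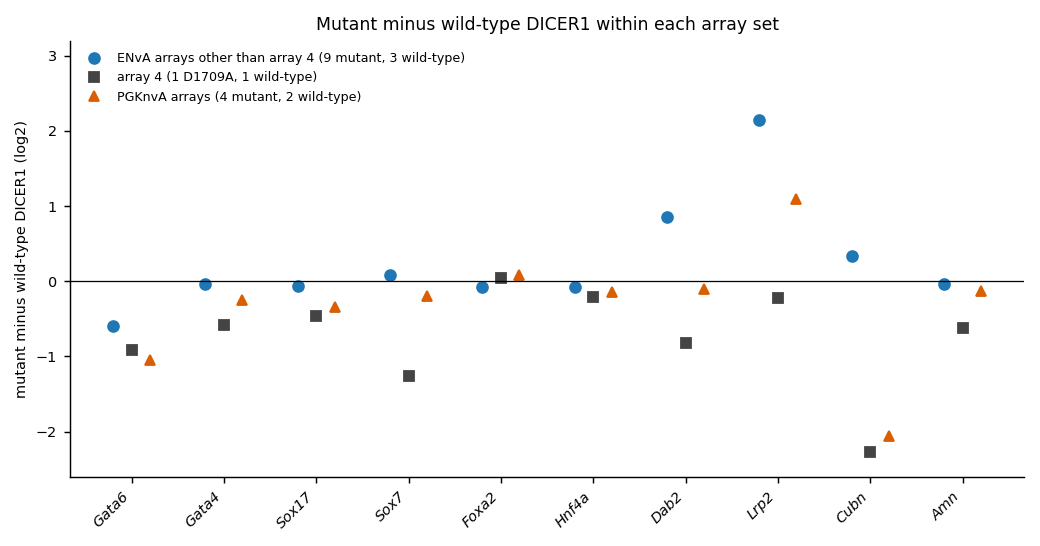
Mutant minus WT-DICER1 difference (log2, vertical axis) of each gene within the 3 array sets, as a mean over mutant groups minus the WT-DICER1 mean of the same set. Gata6 lies below 0 in all 3 sets, Lrp2 lies at 2.15 and 1.10 in the larger sets, and Cubn lies at -2.27 and -2.06 in the smaller ones.

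Cubn, the ligand-binding partner of amnionless, was low and varied between array sets. It was 4.40 and 4.56 in D1709N and 4.69 and 4.74 in E1813Q, against 6.68 and 6.64 on the PGKnvA arrays of WT-DICER1. On array 4 it was 5.26 in D1709A, against 7.54 with WT-DICER1. The mutant minus WT-DICER1 difference was -2.06 on PGKnvA arrays and -2.27 between the arrays numbered 4.

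On the other ENvA arrays Cubn was 6.41, 6.46 and 6.44 in D1709A, 7.01, 6.93 and 6.85 in E1705K, and 6.70, 6.70 and 6.73 in D1810Y, against 6.39, 6.44 and 6.26 with WT-DICER1. There the difference was 0.33, and the groups overlapped. Cubn was 6.30, 6.41 and 6.36 with eGFP, 5.99, 6.12 and 6.10 in Dicer-null cells, and 5.96 on both arrays of Dicer-WT cells. E1705K stood first in the order of group means at 6.93 and D1709N last at 4.48, and neither overlapped its neighbour.

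Because Cubn did not reach the level required for testing, it was tested only in a fit of all 19938 genes. In that fit 46.1% of genes were called between mutants and WT-DICER1, 39.4% between mutants and eGFP, 29.4% for D1709N and 29.7% for E1813Q. The Cubn change in the mean of the mutants was -0.86 against WT-DICER1 (limma adjusted p = 1.96e-05) and -0.56 against eGFP (limma adjusted p = 0.0412). Against WT-DICER1 it was -2.18 in D1709N (limma adjusted p = 2.7e-06) and -1.94 in E1813Q (limma adjusted p = 1.29e-05). It was -0.51 in D1709A, 0.27 in E1705K and 0.05 in D1810Y, none of them called. No background level was measured on these arrays, so the size of a change at such low values is uncertain.

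Amn encodes amnionless, which anchors cubilin in the membrane, and its group means spanned only 0.21. Its arrays ran between 7.01, on array 4 of D1709A, and 7.63, on array 4 of WT-DICER1. The only call was in D1709A against WT-DICER1, at -0.21 (limma adjusted p = 0.0296). That call was lost without array 4 of D1709A (-0.14, limma adjusted p = 0.133), without array 4 of WT-DICER1 (-0.14, limma adjusted p = 0.134) and without D1709A array 2 (-0.20, limma adjusted p = 0.0734). The mean of the mutants against WT-DICER1 was -0.13 (limma adjusted p = 0.0514). It was called without WT-DICER1 array 1 (-0.15, limma adjusted p = 0.0237), without D1709A array 1, D1709A array 3 or E1705K array 2 (limma adjusted p between 0.0336 and 0.0405), without the mean-variance trend (limma adjusted p = 0.0456) and without the vector term (limma adjusted p = 0.0428). WT-DICER1 against eGFP was called without eGFP array 2 (0.24, limma adjusted p = 0.0232), and D1709N against WT-DICER1 without the vector term (-0.21, limma adjusted p = 0.0464).

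Gata4, whose product works with GATA6 in the endoderm, was highest in Dicer-null cells. It was 8.0, 7.93 and 7.84 with eGFP, 8.19, 8.17 and 8.27 in Dicer-null cells, and 7.94 and 7.66 in Dicer-WT cells. The Dicer-null arrays overlapped neither of the other groups. The difference between Dicer-null and Dicer-WT cells was 0.40 (SE 0.108, limma adjusted p = 0.00235), and 0.26 without Dicer-WT array 2 (limma adjusted p = 0.104). Gata4 was lower with eGFP than in Dicer-null cells (-0.28, limma adjusted p = 0.0172). That call was lost without eGFP array 3 (-0.24, limma adjusted p = 0.0778) or Dicer-null array 3 (-0.26, limma adjusted p = 0.064).

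With a transgene, Gata4 had a minimum of 7.40, a median of 7.78 and a maximum of 8.02 over the 14 mutant arrays, against 7.82, 7.92 and 8.11 over the 6 WT-DICER1 arrays. The groups overlapped, and the difference was -0.17 (SE 0.0589, limma adjusted p = 0.0163). The call was lost without WT-DICER1 array 4 (-0.13, limma adjusted p = 0.0545), without WT-DICER1 array 5 (-0.16, limma adjusted p = 0.0528) and on ENvA arrays other than array 4 (-0.03, limma adjusted p = 0.695). The E1813Q arrays, at 7.40 and 7.70, were lower than WT-DICER1 by -0.37 (limma adjusted p = 0.0148). Without E1813Q array 1 the difference was -0.22 (limma adjusted p = 0.239), without WT-DICER1 array 5 it was -0.35 (limma adjusted p = 0.0773), and without WT-DICER1 array 6 it was -0.39 (limma adjusted p = 0.052).

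Sox7, an SRY-box factor of primitive and parietal endoderm, was lower in Dicer-null cells, at 6.34, 6.55 and 6.59, against 7.37 and 7.19 in Dicer-WT cells. The groups did not overlap, and the difference was -0.79 (SE 0.197, limma adjusted p = 0.00128). With WT-DICER1 it had a minimum of 6.85, a median of 6.95 and a maximum of 7.60, against 6.66, 6.74 and 6.61 with eGFP. These groups did not overlap either, and the change was 0.42 (SE 0.165, limma adjusted p = 0.0315). The call was lost without WT-DICER1 array 4 (0.25, limma adjusted p = 0.144), eGFP array 1 (0.41, limma adjusted p = 0.0716) or eGFP array 3 (0.39, limma adjusted p = 0.0919). With arrays centred on their median it was lost too (0.38, limma adjusted p = 0.054). It was kept without array 4 of both D1709A and WT-DICER1 (0.25, limma adjusted p = 0.0465). On ENvA and untransduced arrays other than array 4 it was also kept (0.25, limma adjusted p = 0.0149).

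In the mutants Sox7 had a minimum of 6.34, a median of 7.0 and a maximum of 7.14, within which the minimum was array 4 of D1709A. The mutants overlapped WT-DICER1, and the difference was -0.17 (limma adjusted p = 0.191). Within sets it was 0.08 on ENvA arrays other than array 4, -1.26 between the arrays numbered 4, and -0.19 on PGKnvA arrays. Against eGFP the mutants differed by 0.25 (limma adjusted p = 0.184), and by 0.33 on ENvA arrays other than array 4 (limma adjusted p = 0.000231).

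Sox17, a relative of Sox7 in the primitive endoderm, ran between 5.88 on a D1709N array and 6.63 on array 4 of WT-DICER1. In the fit of all 19938 genes it was lower in the mutants than with WT-DICER1 (-0.22, limma adjusted p = 0.00387) and in D1709N (-0.46, limma adjusted p = 0.00449). Within sets the difference was -0.06 with overlap on ENvA arrays other than array 4, -0.46 between the arrays numbered 4, and -0.34 on PGKnvA arrays.

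Foxa2, a forkhead factor of visceral and definitive endoderm, and Hnf4a, the nuclear receptor that drives visceral endoderm metabolism, were not called in any comparison. The group means of Foxa2 spanned 0.23, and those of Hnf4a spanned 0.25. Between mutants and WT-DICER1 the difference was 0.01 for Foxa2 (limma adjusted p = 0.868) and -0.11 for Hnf4a (limma adjusted p = 0.126). Single array removals gave calls for Hnf4a in 4 places: WT-DICER1 against eGFP without eGFP array 2 (0.25, limma adjusted p = 0.0363), the mutants against WT-DICER1 without E1813Q array 1 (-0.15, limma adjusted p = 0.0373), E1813Q without the same array (-0.40, limma adjusted p = 0.0333), and D1709A without its array 1 (-0.23, limma adjusted p = 0.0478).

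Over the 8 tested genes, the share called was below that over all genes in each of the 10 comparisons between groups. Between mutants and WT-DICER1, 2 rose (Dab2 and Lrp2), 2 fell (Gata6 and Gata4) and 4 were not called, against 60.1% of all 13956 tested genes called. Between mutants and eGFP, 2 rose (Gata6 and Dab2) and 6 were not called, against 53.1% of all. Between WT-DICER1 and eGFP, 3 rose (Gata6, Dab2 and Sox7), 1 fell (Lrp2) and 4 were not called, against 59.5% of all. For eGFP against Dicer-null 1 fell (Gata4) and 7 were not called, against 47.6% of all, and for Dicer-null against Dicer-WT 2 rose (Lrp2 and Gata4), 1 fell (Sox7) and 5 were not called, against 57.9% of all.

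By mutant, the counts against WT-DICER1 were 1 higher and 2 lower in D1709A (45.8% of all genes called), 2 higher and 1 lower in E1705K (48.0%) and 2 higher and 1 lower in D1810Y (53.7%). They were 1 higher and 1 lower in D1709N (40.0%) and 1 higher and 2 lower in E1813Q (40.6%). The median log2 change of the 8 genes was -0.12 between mutants and WT-DICER1, against 0.01 over all genes. Between mutants and eGFP it was 0.15, against 0.02 over all genes, and between WT-DICER1 and eGFP it was 0.16, against 0.02 over all genes.

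**Figure D3:**
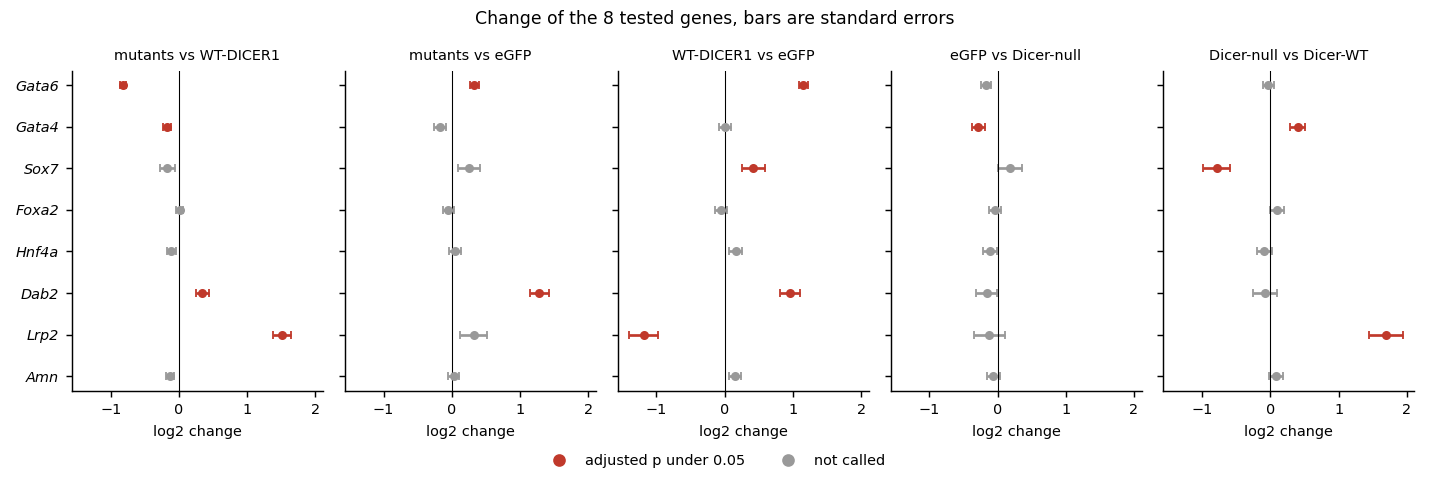
Log2 change (horizontal axis) of the 8 tested genes in 5 comparisons, with bars of 1 standard error and red points for a limma adjusted p under 0.05. Lrp2 lies at 1.51 between mutants and WT-DICER1 and at -1.19 between WT-DICER1 and eGFP, and Gata6 lies at -0.82 and 1.15.

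The ENvA mutants (D1709A, E1705K and D1810Y) and the PGKnvA mutants (D1709N and E1813Q) were also compared, each against WT-DICER1 in the same vector. The WT-DICER1 means of the vectors were equal in the deposited values. The result therefore equals the difference between the deposited levels of the ENvA and PGKnvA mutants. How the WT-DICER1 means came to be equal is not stated in the labels. Over all genes 18.0% were called for the difference between these effects, against 2 of the 8. For Dab2 the ENvA effect exceeded the PGKnvA effect by 0.73 (limma adjusted p = 0.0147), and for Gata6 by 0.38 (limma adjusted p = 0.00809). Both calls were lost without WT-DICER1 array 6 (Dab2 0.70, limma adjusted p = 0.0816, and Gata6 0.36, limma adjusted p = 0.0613), and the Dab2 call without WT-DICER1 array 5 (0.76, limma adjusted p = 0.0662). For Lrp2 the difference was 0.69 and was not called (limma adjusted p = 0.101). It was called without array 4 of D1709A (0.78, limma adjusted p = 0.00614), without array 4 of WT-DICER1 (0.96, limma adjusted p = 0.00123) and without both (1.05, limma adjusted p = 3.42e-14). In the fit of all 19938 genes, where 11.5% were called, Cubn differed by 2.0 (limma adjusted p = 0.000171). The vectors carried different substitutions, so vector and mutation cannot be told apart here.

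The group means of the 10 genes did not move as 1 block. Over the 9 groups the Pearson correlation was 0.54 between Dab2 and Lrp2, 0.45 between Gata6 and Dab2, -0.23 between Gata6 and Lrp2 and 0.02 between Gata6 and Gata4. It was 0.38 between Cubn and Amn, whose products form a complex. These are descriptions over 9 groups that share arrays, vectors and the array relations above. Among 2770 tested genes with group means spanning at least 1, those most like Lrp2 were Hipk2 (r = 0.949), Parp8 (r = 0.944) and Chst15 (r = 0.943). Those most like Dab2 were Kcnip3 (r = 0.966), Ccdc116 (r = 0.960) and Selenop (r = 0.956), and those most like Gata6 were Ino80c (r = 0.883), Slc30a2 (r = 0.860) and Nfyb (r = 0.855).

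Other genes of the primitive endoderm program and its branches were examined as lists. The share of all genes called, beside which each count stands, was 59.5% for WT-DICER1 against eGFP, 60.1% for mutants against WT-DICER1, 53.1% for mutants against eGFP and 57.9% for Dicer-null against Dicer-WT cells. Of 8 tested primitive endoderm signals and receptors, 5 rose and 1 fell with WT-DICER1 against eGFP (59.5% of all genes called), with a median of 0.27. The FGF receptor Fgfr2 rose by 1.0, Fgfr4 by 0.44 and the PDGF receptor Pdgfra by 0.38, with limma adjusted p-values of 0.000418 or less. Between mutants and WT-DICER1, 3 rose and 1 fell (60.1% of all genes called), with Fgfr2 at 0.30, Fgfr1 at 0.31 and Pdgfra at -0.34. Within sets Fgfr2 differed by 0.47 on ENvA arrays other than array 4, by 0.04 between the arrays numbered 4 and by 0.06 on PGKnvA arrays. Pdgfra thus shared with Gata6 a higher level with WT-DICER1 than in either the mutants or eGFP. Genes of other lists did so as well, among them Eomes and Gata3. With WT-DICER1 against eGFP they changed by 1.33 and 1.17, and in the mutants against WT-DICER1 by -0.85 and -0.36.

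Of 12 parietal endoderm and basement membrane genes, 5 rose and 6 fell with WT-DICER1 against eGFP (59.5% of all genes called), with a median of -0.26. Srgn, which encodes a secretory granule proteoglycan, rose by 1.18 and thrombomodulin (Thbd) by 0.73, while the matrix protein gene Sparc fell by 0.60. Between mutants and WT-DICER1, 3 rose and 5 fell (60.1% of all), with Srgn at -1.57, Thbd at -0.58 and the basement membrane gene Nid1 at -0.56. Within sets Srgn differed by -0.53 on ENvA arrays other than array 4, by -2.47 between the arrays numbered 4, and by -2.80 on PGKnvA arrays. Nid1 differed by -0.95, 0.34 and -0.18 in the same order of sets, so the arrays numbered 4 went the other way, and Thbd was lower in all 3 sets. In Dicer-null cells against Dicer-WT cells, 5 rose and 2 fell (57.9% of all), with Sparc at 1.58, Nid1 at 1.08 and the laminin gene Lamc1 at 0.74.

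Of 15 visceral endoderm genes, 14 had a probe set and 9 were tested. With WT-DICER1 against eGFP, 0 rose and 2 fell (59.5% of all genes called), the apolipoprotein genes Apob at -1.86 and Apoa2 at -0.32 (limma adjusted p = 0.00038 for Apoa2). Between mutants and WT-DICER1, 3 rose and 0 fell (60.1% of all), namely Apoa2 at 0.56, Apob at 0.31 and the homeobox gene Hhex at 0.20. Between the arrays numbered 4, Hhex went the other way at -0.43 and Apob differed by 0.01, against 0.41 for Hhex and 0.36 for Apob on the other ENvA arrays. On PGKnvA arrays Hhex differed by 0.08 and Apob by 0.35. The Apob mean with WT-DICER1 was 6.10, against 7.96 with eGFP. Afp, Ttr, Apom, Rbp4 and Cer1 were below the level required for testing.

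Relatives of megalin moved in both directions. Of 8 tested members of the LDL receptor family, 3 rose and 4 fell with WT-DICER1 against eGFP (59.5% of all genes called), with Sorl1 at -1.36, Lrp10 at -0.92 and the VLDL receptor gene Vldlr at 0.77. Between mutants and WT-DICER1, 4 rose and 4 fell (60.1% of all), with Sorl1 at -0.59, Lrp1 at -0.48 and Lrp5 at 0.38. Lrp1 differed by -0.97 on ENvA arrays other than array 4, by 0.51 between the arrays numbered 4 and by -0.06 on PGKnvA arrays. In the same order of sets Sorl1 differed by -0.77, -0.01 and -0.49, and Lrp5 was higher in all 3. Sorl1 and Lrp10 were also higher in Dicer-null than in Dicer-WT cells, by 2.13 and 0.90.

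Of 9 tested chaperones, adaptors and cargo genes of apical endocytosis, 3 rose and 3 fell with WT-DICER1 against eGFP (59.5% of all genes called) and also between mutants and WT-DICER1 (60.1% of all). These shares lie near those over all genes. The folate receptor gene Folr1 had a change of -1.0 with WT-DICER1 against eGFP, and of 0.49 in the mutants against WT-DICER1. Dab1, the relative of Dab2, had a change of -0.45 with WT-DICER1 against eGFP and of 0.57 in the mutants against WT-DICER1. Within sets the mutant minus WT-DICER1 difference of Dab1 was 0.87 on ENvA arrays other than array 4, -0.26 between the arrays numbered 4 and 0.37 on PGKnvA arrays. Tcn2, a vitamin B12 carrier that is taken up by endocytosis, rose by 0.81 with WT-DICER1 against eGFP. Of 7 tested relatives of the transcription factors, 2 rose and 1 fell with WT-DICER1 against eGFP (59.5% of all), and Gata3 rose the most at 1.17.

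**Figure D4:**
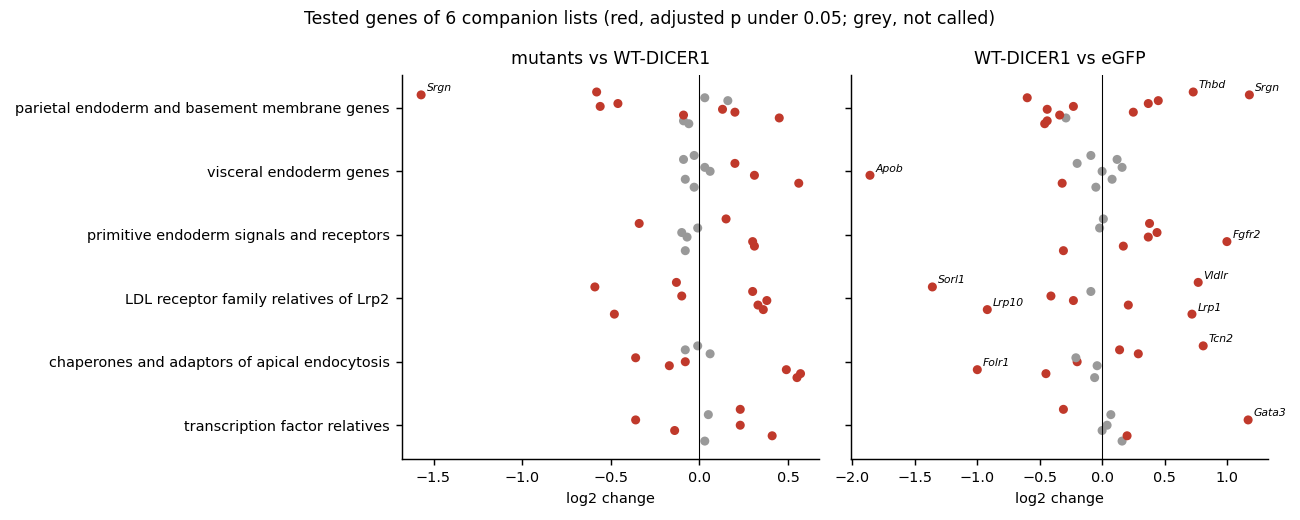
Log2 change (horizontal axis) of each tested gene of 6 lists between mutants and WT-DICER1 and between WT-DICER1 and eGFP, red for a limma adjusted p under 0.05 and grey otherwise. Apob lies at -1.86 and Srgn at 1.18 between WT-DICER1 and eGFP, and Srgn lies at -1.57 between mutants and WT-DICER1. Apob reached the level required for testing only through the eGFP arrays.

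Markers of other cell types were also called between WT-DICER1, the mutants and eGFP. Some of these counts lay below the share over all genes. This held for definitive endoderm and mesoderm markers between WT-DICER1 and eGFP, and for fibroblast or feeder markers between mutants and WT-DICER1. Of 7 tested trophoblast markers, 6 rose and 0 fell with WT-DICER1 against eGFP (59.5% of all genes called), and 7 rose in the mutants against eGFP (53.1% of all). Of the same 7, 4 rose and 2 fell between mutants and WT-DICER1 (60.1% of all). The mean of the 8 markers with a probe set ran between 8.09 and 8.30 on WT-DICER1 arrays, against 7.72 and 7.86 on eGFP arrays. Of 8 tested fibroblast or feeder markers, 5 rose and 1 fell with WT-DICER1 against eGFP (59.5% of all genes called), with Acta2 at 2.75, Pdgfrb at 1.30 and Tagln at 1.0. The mean of the 11 with a probe set ran between 7.50 and 7.62 on WT-DICER1 arrays, against 6.78 and 6.92 on eGFP arrays. In the mutants against eGFP, 4 of those 8 rose and 1 fell (53.1% of all), and between mutants and WT-DICER1 0 rose and 3 fell (60.1% of all). The collagen genes Col1a1, Col1a2 and Col3a1 were tested, with means over all arrays of 8.14, 7.52 and 7.39. Postn, Lum and Dcn, with means of 5.75, 4.06 and 6.10, were not tested. On ENvA arrays other than array 4, Postn averaged 5.26 in the mutants, against 7.53 with WT-DICER1, and on PGKnvA arrays 6.26 in the mutants, against 7.21 with WT-DICER1. On array 4 it was 6.61 in D1709A, against 6.26 with WT-DICER1. Of 6 tested definitive endoderm and mesoderm markers, 1 rose and 2 fell with WT-DICER1 against eGFP (59.5% of all genes called), with Eomes at 1.33, Kdr at -0.96 and Cxcr4 at -0.28. Eomes is also among the trophoblast markers, and Gata3 is both there and among the relatives of the transcription factors. The counts of these lists are therefore not separate. The part of these cell types in the changes of the 10 genes was not tested.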

How the data were processed

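Total RNA of mouse ES cells was profiled on 28 arrays. The authors deposited log2 expression values for 35556 probe sets, made with RMA and Partek 6.6 per the submitters' processing notes, with settings not given in the sources used here. Array medians lay between 7.14 and 7.27. The number of arrays limits the precision. Of the probe sets, 21789 had 1 gene symbol, 1621 several and 12146 none in the platform annotation, and only the first kind was used. Where a symbol had several probe sets, the one of highest mean stood for it, which gave 19938 symbols.

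Symbols with a mean under the 30th percentile (6.42) were left out, leaving 13956. All arrays entered 1 limma model (limma 3.58.1, R 4.3.3) with 9 groups, a PGKnvA term and a mean-variance trend (18 residual degrees of freedom). The model was tested on simulated data with independent noise, which lack the exact relations between arrays. Tests were two-sided, adjusted by Benjamini-Hochberg over all tested genes and called under 0.05. The exact relations between arrays leave fewer free residuals than the model assumes, so p-values are approximate. The mutant mean weights 5 groups equally.

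All 10 genes were named, plus up to 3 called genes per list and comparison by absolute change, and the 3 most alike genes by correlation of group means. Genes, lists and the rule were chosen with earlier results of these data known. Figures were drawn with Python 3.11.15 and matplotlib 3.10.9. Promoter sequences came from RefSeq, build GRCm38.p6. Other filters, no trend, array centring, no vector term, ENvA arrays only, array set as a block, the replicate block, the mean of probe sets and left-out arrays were tried.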

Additional observations from a re-analysis of the deposited data

Results flagged for a closer look

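The 10 genes were each examined for an array far from the others in the 2 groups of 4 or more arrays, D1709A and WT-DICER1. Of these 20 sets of values, 5 held one. Chance flags about 1 in 20 for separate groups, a rate that does not apply to genes measured on the same arrays. All 5 were arrays numbered 4. Dab2 on array 4 of WT-DICER1 was 8.19, while the other 5 arrays ran between 7.45 and 7.73. Lrp2 was 9.04 on array 4 of D1709A, while the other arrays of that group ran between 10.06 and 10.18. It was 9.26 on array 4 of WT-DICER1, while the other arrays of that group ran between 8.15 and 8.49. Cubn was 5.26 on array 4 of D1709A, while the others ran between 6.41 and 6.46, and 7.54 on array 4 of WT-DICER1, while the others ran between 6.26 and 6.68. The 2 arrays deviate by equal and opposite amounts in the deposited values, so these deviations are not independent.

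The mutant effect differed between vectors for Dab2 by 0.73 and for Gata6 by 0.38 (ENvA minus PGKnvA, limma adjusted p = 0.0147 and 0.00809), and each mutant was measured in 1 vector only. With equal WT-DICER1 means, these values equal the differences between the deposited mutant levels.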

How the results depend on the processing

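The number of the 10 genes called kept within 1.5 times of its reported value in most settings. For eGFP against Dicer-null it was 1, and became 2 without the mean-variance trend, 2 with arrays centred, 3 without the PGKnvA arrays and array 4, 3 without array 4 alone and 2 when the first arrays of 5 groups were left out as well. For WT-DICER1 against eGFP it was 4, and 2 with the filter at the 50th percentile (7.61). For mutants against eGFP it was 2, then 1 with that filter, 4 without the PGKnvA arrays and array 4, 4 without array 4 alone and 4 when the first arrays of 5 groups were left out as well. With that filter it was 1 in D1709A (3 reported), 1 in D1709N (2 reported) and 1 for the vector difference (2 reported). Without a filter it was 4 in D1709N. A stricter filter tests fewer of the 10 genes and no filter tests all of them. In the other settings the cause was not tested.

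With 1 array left out, the count ran from 0 to 2 for eGFP against Dicer-null, from 2 to 3 for Dicer-null against Dicer-WT, from 3 to 6 for WT-DICER1 against eGFP, from 2 to 3 for mutants against eGFP and from 3 to 5 for mutants against WT-DICER1. By mutant it ran from 2 to 4 in D1709A, stayed at 2 in D1709N, at 3 in E1705K and at 3 in D1810Y, and ran from 2 to 3 in E1813Q. For the vector difference it ran from 0 to 3. No called change of a single gene turned its sign in these refits. Taken within sets, with no test, the called mutant minus WT-DICER1 difference turned for Dab2 (-0.82 between the arrays numbered 4 and -0.10 on PGKnvA arrays) and for Lrp2 (-0.22 between the arrays numbered 4). The settings that left out array 4, the PGKnvA arrays or the first arrays of 5 groups were chosen after seeing the data. Without all of these, the mutant minus WT-DICER1 difference was -0.56 for Gata6, 0.92 for Dab2 and 2.17 for Lrp2.

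Whether equal replicate numbers in the labels mark paired arrays could not be settled. The exact relations above fix or shift correlations between arrays of equal number, so low values cannot exclude pairing. Over 88 same-number pairs from different groups, deviations from group means correlated between -1.0 and 0.55, 12 pairs were over 0.1, and 6 of 28 arrays correlated best with an array of their own number. With the replicate block, Gata4 lost its call between mutants and WT-DICER1 (-0.17, limma adjusted p = 0.0672), as did Sox7 between WT-DICER1 and eGFP (0.42, limma adjusted p = 0.0571) and Amn in D1709A (-0.21, limma adjusted p = 0.0534).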
